A study of Mus musculus with 5 samples.

Results

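The change in the mouse cerebellum from embryonic day 18 (E18) to postnatal day 7 (P7) was read from array values of total RNA, with 1 column of values for each age. The comparison uses 2 of the 5 columns, the others being P14, P21 and P56, and takes in every probe of the table: 787 with 1 gene symbol (773 genes), 16 with several and 94 with none. Per the labels, each column is the mean of 2 array experiments on cerebellum. The sources used here do not give strain, genotype, sex, treatment, the number of animals or whether the experiments used separate animals. The values lie between 0.01 and 100 and behave like percentages of the highest age of the probe itself, taken within each experiment before averaging. Comparing them makes sense within a probe, across ages, but not between probes, so the tissue label could not be checked by the level of its markers. With 1 column a side there is no test and no p-value, and precision is limited by how few arrays there are. The words rose and fell are kept for differences of 2-fold or more.

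The mouse cerebellum is still immature at birth. Around and after birth, granule cell progenitors divide in an external layer on its surface under the influence of Sonic hedgehog, which Purkinje cells release, and their daughters migrate inward and mature. Bergmann glia and astrocytes spread, Purkinje cells grow their dendrites, and oligodendrocytes start to wrap axons in myelin in the same period.

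Most probes held their value over this step. At P7, 52 probes (5.80%) were higher than at E18 by 2-fold or more, 25 (2.79%) were lower and 820 (91.4%) stayed within 2-fold. The 687 probes that differed by less than 1.5-fold make up 76.6% of the table, and the median difference was 0.05 on the log2 scale. By comparison, 39.1% of probes passed 2-fold from P7 to P14, 16.4% from P14 to P21 and 4.91% from P21 to P56; these steps share columns. Named by a single gene symbol, the rises came to 45 of 773 genes (5.82%) and the falls to 21 (2.72%), together 8.54%.

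**Figure D1:**
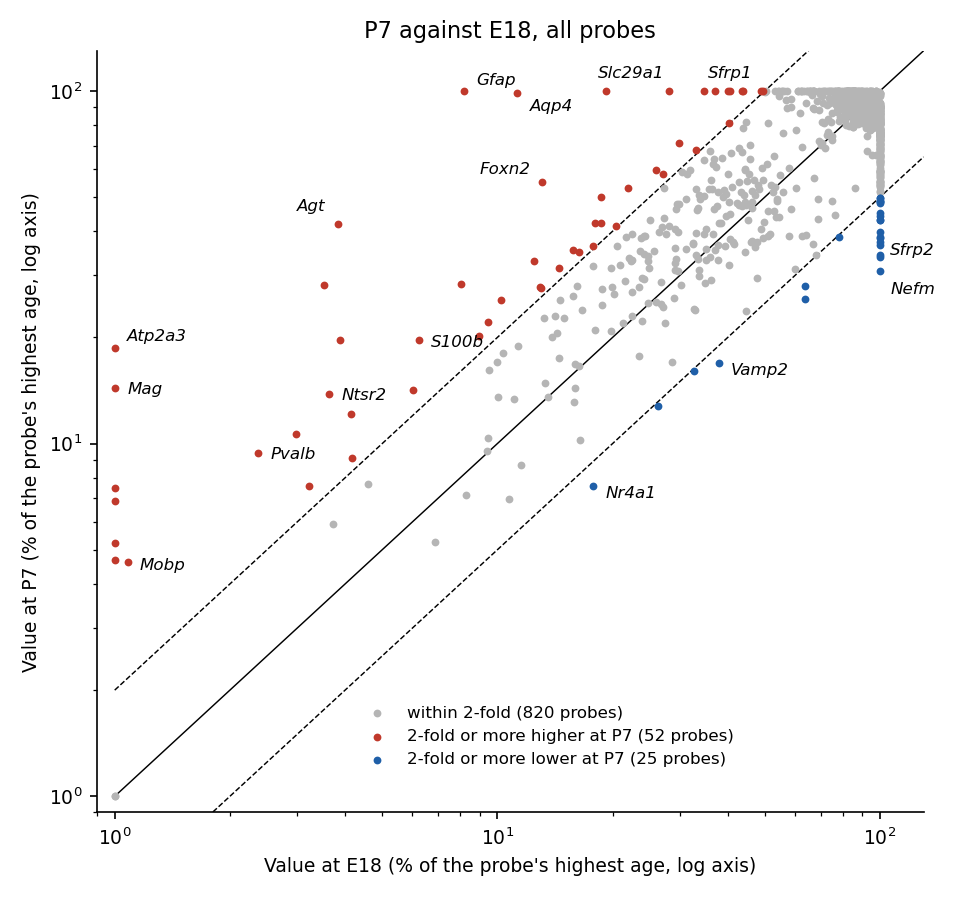
Each point is 1 probe, with its value at E18 on the horizontal axis and at P7 on the vertical axis, both in percent of the probe's highest age on log axes with values under 1% drawn at 1%. The solid line marks equal values and the dashed lines 2-fold; the 52 rises (red) lie above the upper dashed line and the 25 falls (blue) below the lower one, and because the scale ends at 100% no rise can start above 50%.

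On a scale that ends at 100%, a 2-fold rise has to start at or below 50%, whereas a fall may start at 100%, so the values at E18 are given as a description of the chosen probes. The 52 rises had a median of 13.0% at E18, and 36 of them started under 20%. Of the 25 falls, 18 started at exactly 100%, as did 19.7% of all probes. A mean of exactly 100% can arise only if both experiments had their highest value at that age, and means that lie more than 50 points apart leave no room for one experiment to have moved the other way. By these bounds both experiments must have moved alike for 12 of the 52 rises and 18 of the 25 falls. For the other 40 rises the spread between experiments is not known. In 14 genes with several probes, the probes' differences lay apart by a median of 0.24 (log2), and their signs were the same in 9. The call was the same for each probe in 13 of these genes, the exception being Atp2a3. Apart from Bmp1 and Ebf3, those 13 genes had every probe within 2-fold. Both columns being whole tissue, fewer cells of a type and less RNA per cell cannot be told apart.

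Astrocyte genes were among the larger rises. Gfap, which encodes the intermediate filament protein of astrocytes, rose 12.2-fold from 8.17% at E18 to 100% at P7, its highest value, and was at 68.7%, 39.9% and 44.2% at the later ages. Aqp4, the gene of the water channel of astrocyte endfeet, went from 11.3% to 98.9%, an 8.76-fold rise, and then held between 77.4% and 79.5%. Agt, the angiotensinogen gene, which astrocytes express in the brain, went from 3.84% to 42.0% (10.9-fold) and reached 100% at P14. These 3 genes thus took different courses after a similar rise. The neurotensin receptor gene Ntsr2 went from 3.63% to 13.8% (3.81-fold), stood at 15.4% at P14 and came to 100% at P56 alone. S100b, a glial gene for a calcium-binding protein, went from 6.23% to 19.6% (3.15-fold) and then up at each age to 100% at P56.

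Of 13 measured astrocyte and Bergmann glia genes, 5 rose and none fell, with a median of 0.46 (log2), beside 5.82% risen and a median of 0.05 over all named genes. The other 8 stayed within 2-fold. Among them Tnc, the tenascin C gene, stood at 95.8% and 88.4%, Clu, the clusterin gene, at 24.8% and 34.1%, and Gjb6, a connexin gene of astrocytes, at 28.6% and 17.1%. Dao, which encodes D-amino acid oxidase, was at 0.02% at both ages. With quantile normalization 3 of the 13 rose and 2 fell, beside 36 and 51 of the 773 named genes, and the median was 0.12. Gfap, Aqp4 and Agt kept differences of 3.49, 2.98 and 2.50 (log2). Only Gfap and Aqp4 of the 5 lie more than 50 points apart.

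Some genes of the myelin sheath rose to values that were still low. Mag, the gene of myelin-associated glycoprotein, was at 0.38% at E18 and 14.4% at P7, at least 14.4-fold higher when values under 1% are set to 1%. Mog, which encodes a protein of the outer sheath, stood at 0.47% and 5.22% and was at least 5.22-fold higher. Mobp, another myelin protein gene, went from 1.08% to 4.63% (4.29-fold). All 3 were far from their later level, since at P14 they stood at 77.2%, 81.4% and 48.7%. Cldn11, the claudin gene of myelin tight junctions, at 14.3% and 20.6%, and Gsn, the gelsolin gene, at 10.3% and 18.1%, did not reach 2-fold. Apod, the apolipoprotein D gene, fell from 63.9% to 25.7% (2.49-fold). Of the 9 measured genes, 3 rose and 1 fell, beside 5.82% and 2.72% of all named genes, and the median was 0.53. This list rests on small percentages: quantile normalization turned its median to -0.25, with 1 risen (Mag, 1.63) and 2 fallen, and 0 of the 9 rose when low values were raised to the 10th percentile. The only measured gene of oligodendrocyte progenitors, the growth factor receptor gene Pdgfra, was also higher at P7, within 2-fold, but lower after it. It stood at 63.5% at E18, its highest value of 100% at P7 and 12.8% at P14.

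Several genes of electrical activity in mature neurons rose as well. Kcna1, a voltage-gated potassium channel gene, was at 0.02% at E18, 6.86% at P7 and 62.4% at P14, at least 6.86-fold higher at P7. Scn1a, a sodium channel gene, went from 10.2% to 25.6% (2.51-fold). Of 9 measured genes of ion channels and pumps 3 rose, beside 5.82% of all named genes, and none fell, with a median of 0.74. The third was Atp2a3, the gene of a calcium pump of the endoplasmic reticulum that Purkinje cells express, whose probes did not agree in size: one went from 0.08% to 18.7%, at least 18.7-fold, and the other from 3.71% to 5.92%, which is within 2-fold. Kcnj9, Kcnab1, Kcnd2 and Atp2a2 had differences between 0.67 and 0.75. With quantile normalization 0 of the 9 passed 2-fold and the median was 0.39.

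Some genes of mature granule cells and Purkinje cells passed 2-fold, and these came from different values at E18. Gabra6, the GABA-A receptor subunit gene of mature granule cells, was at 0.72% at E18, 4.67% at P7 and 94.2% at P14, at least 4.67-fold higher at P7; quantile normalization turned its difference to -0.53. Gabrd, the partner subunit gene in granule cells, was under 1% at both ages, at 0.02% and 0.61%. Grin2c, an NMDA receptor subunit gene, stood at 11.5% and 8.71%, and Etv1, a transcription factor gene, at 9.43% and 10.4%. Of 12 measured genes in the mature granule cell list 2 rose, Gabra6 and Nfia, beside 5.82% of all named genes, and none fell. Unlike Gabra6, Nfia was highest at P7, at 100%, and stood at 50.2% at P14 and 37.0% at P56. Its course is thus not that of a gene that climbs as granule cells mature. The list's median was 0.32, and -0.41 with quantile normalization. Pvalb, the parvalbumin gene of Purkinje cells and interneurons, went from 2.37% to 9.41% (3.97-fold) and to 95.6% at P14. The Purkinje cell genes Pcp2, at 22.5% and 39.2%, and Calb1, the calbindin gene, at 37.4% and 60.9%, did not reach 2-fold. In the list of Purkinje cells and other GABAergic neurons 2 of 12 rose and 1, Ebf2, fell, beside 5.82% and 2.72% of all named genes. The risen genes were Pvalb and Atp2a3, the latter past 2-fold on 1 of its 2 probes. The list's median, 0.35, turned to -0.02 with quantile normalization, where 0 of the 12 rose.

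Synaptic genes moved both ways. Syt2, a synaptotagmin gene that encodes a calcium sensor of transmitter release, went from 2.98% to 10.6% (3.57-fold), and Napa, the alpha-SNAP gene whose protein helps take fusion complexes apart, from 33.1% to 67.9% (2.05-fold). Vamp2, the synaptobrevin 2 gene of synaptic vesicles, fell from 37.9% to 17.0% (2.23-fold), and Rab3a, a vesicle GTPase gene, fell from 78.4% to 38.5% (2.04-fold). Syt5 fell from 100% to 49.6% (2.02-fold). The list of synaptic vesicles and release held 14 measured genes, 2 risen and 3 fallen, beside 5.82% and 2.72% of all named genes. Its median of -0.02 was so small that the sign changed with columns divided by their medians (0.01). None of the 14 rose and 3 fell with quantile normalization, and the median there was -0.40. Calcium signalling had 4 of 11 risen, beside 5.82% of all named genes, and none fallen, with a median of 0.59. The 4 were Pvalb, S100b, Atp2a3 and the ryanodine receptor gene Ryr2, which went from 18.7% to 42.1% (2.25-fold). Pvalb, S100b and Atp2a3 are counted in other lists as well, and Atp2a3 passed 2-fold on 1 of its 2 probes. With quantile normalization 0 of the 11 calcium signalling genes passed 2-fold, and the median was 0.44.

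**Figure D2:**
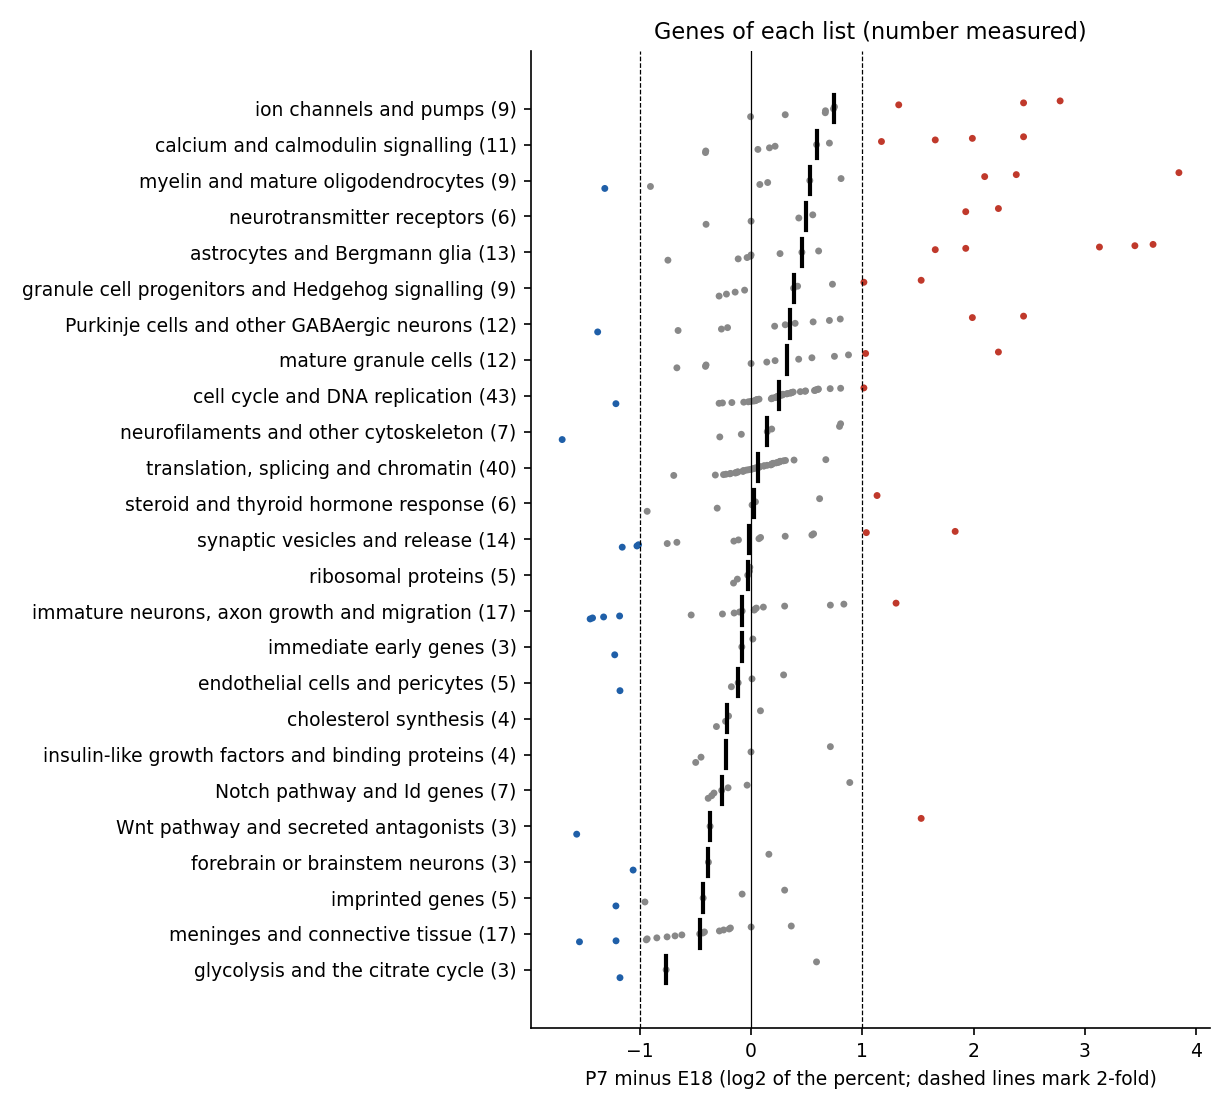
Each point is the P7 minus E18 difference of 1 gene on the log2 scale, for lists with at least 3 measured genes, red if risen and blue if fallen, and the black bar is the list's median. Channels, calcium signalling and myelin lie furthest to the right, with medians of 0.74, 0.59 and 0.53, while glycolysis, with 3 genes, and meningeal genes lie to the left with -0.76 and -0.46.

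Of the 52 rises, 12 had their highest value at P7, beside 33.6% of all probes. Rises were chosen for being higher at P7 than at E18 and cannot be highest at E18, so that share is no like comparison. The median of the 12 went from 38.5% at E18 to 100% at P7 and 65.5% and 29.7% at the next ages. That of the other 40 went from 9.21% and 27.7% to 78.1% and 87.7%. The peaks include Gfap and Aqp4. Slc29a1, an equilibrative nucleoside transporter gene, stood at 28.0%, 100%, 34.2%, 7.38% and 8.63% at the 5 ages, a 3.57-fold rise and then an 11.6-fold difference down to P56. Sfrp1, the gene of a secreted Wnt antagonist, rose 2.89-fold, from 34.7% to 100%, and was back at 25.3% by P14 and 3.79% by P21. Ccnd2, the cyclin D2 gene of dividing granule cell progenitors, rose 2.02-fold, from 49.5% to 100%, before standing at 10.1%, 0.50% and 0.03% at the 3 later ages. These 3 genes were lower at P56 than at E18, as were Cd9, Cdk5rap3 and Nfia among the other peaks.

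The other peaks took mixed courses. Nfix and Nfia encode transcription factors of the nuclear factor I family, which are known to act in the differentiation of granule neurons and glia. Nfix went from 40.5% to 100% (2.47-fold) and stayed at 93.4% at P14, while Nfia went from 49.0% to 100% (2.04-fold) and back to 50.2%. The tetraspanin gene Cd9 rose 2.70-fold to 100% and stood at 68.3% at P14 and 28.1% at P21. Ramp1, which encodes a partner protein of calcitonin-type receptors, rose 2.50-fold, Cdk5rap3 2.29-fold and Slc44a1, a choline transporter gene, 2.28-fold. For 11 of the 12 the value at P7 was exactly 100%, and Aqp4 stood at 98.9%. One probe with no gene symbol stood at 19.3%, 100% and 8.39% at E18, P7 and P14. The split between peaks and later maxima depends on the scale between columns: with quantile normalization 34 of 44 rises had their highest value at P7.

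**Figure D3:**
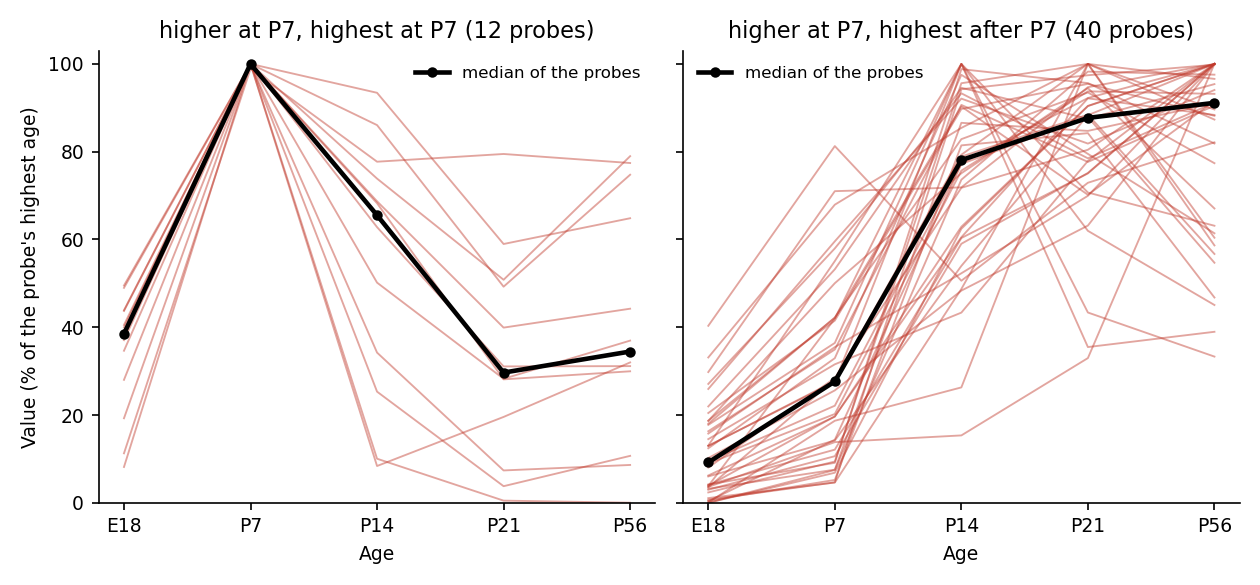
Lines are the values of single probes that rose from E18 to P7, in percent of the probe's highest age, at the 5 ages, and the black line is their median. On the left, the 12 probes with their highest value at P7 came down to a median of 34.5% at P56; on the right, the other 40 went on to a median of 91.1%.

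The remaining rises were spread over many functions. Foxn2, a forkhead transcription factor gene, went from 13.1% to 55.1% (4.21-fold), to 100% at P14 and back to 43.4% at P21. Sowaha rose 2.93-fold and S100a13, an S100 family gene, 2.68-fold. Bmp1, which encodes a metalloproteinase that trims procollagen, rose on both of its probes, by 2.65-fold and 2.14-fold. Thy1, a surface glycoprotein gene of neurons, went from 21.96% to 53.2% (2.42-fold) and to 94.6% at P14. Ctss, the cathepsin S gene of microglia, went from 29.8% to 71.0% (2.38-fold) and 71.9% at P14, while Laptm5, the other measured gene of the microglia and immune list, stood at 80.4% and 93.0%. The rest rose between 2.02-fold and 2.35-fold: Hs3st1, Htra1, Pim2, Tsc22d4, Tlcd4, Ryr2, Nacc2, Hsd11b1, Ifitm10, Fam102a, Baiap2, Ackr1, Ltbp2, Scd1 and Tomm34. The glucocorticoid-activating enzyme gene Hsd11b1 stood at 4.16% and 9.12% before 98.8% at P14, and its sign turned with quantile normalization (-0.14). A further 6 rises had no gene symbol. One was at 0.01% at E18 and 7.48% at P7, at least 7.48-fold higher, and another went from 3.53% to 28.1% (7.96-fold). The probe given above with its peak at P7 rose 5.19-fold, and the other 3 rose 5.06-fold, 3.54-fold and 2.36-fold.

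Genes of cell division changed little in size but leaned one way. Of 43 measured genes of the cell cycle and DNA replication only Ccnd2 rose and only Cdkn1c fell. Over all named genes 5.82% rose and 2.72% fell. The median of the 43 was 0.25. Yet 23 of their 44 probes stood at exactly 100% at P7, beside 11.7% of all probes, and 2 at exactly 100% at E18, beside 19.7%. Under the reading of the values above, both experiments were highest at P7 for those 23. In all, 36 of the 44 probes had their highest value at P7 and 7 at E18, while over the whole table the shares were 33.6% and 34.9%. From P7 to P14 the values were lower for 43 of the 44, beside 69.6% of all probes, the exception being the cyclin E1 gene Ccne1.

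Mki67, the gene of the proliferation marker Ki-67, stood at 57.2% at E18, 100% at P7 and 7.93% at P14. Cdc45, a gene of the replicative helicase, went from 61.1% to 100%, the mitotic activator Cdc20 from 65.8% to 100%, and E2f1, a transcription factor gene of S phase entry, from 67.0% to 100%. None of these reached 2-fold. At the other end Cdk4, the kinase partner of D-type cyclins, stood at 99.1% and 87.9%, and Ccnd1, the cyclin D1 gene, at 100% and 71.7% on one probe and 96.1% and 90.0% on the other. The D-type cyclins therefore lay on opposite sides, with Ccnd2 highest at P7 and both Ccnd1 probes highest at E18. Cdkn1c, the gene of the cell cycle inhibitor p57, fell from 100% to 43.1% (2.32-fold) and to 7.20% at P14. With quantile normalization 5 of the 43 rose and 1 fell, beside 36 and 51 of the 773 named genes, and the median was 0.65.

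Promoters of Mki67, Cdc20 and Hmgb2 are shown as examples of short elements known from cell cycle genes, a CCAAT box and the core TTTGAA of the cell cycle homology region. They were picked by hand, and not every division gene holds these elements. The 200 bases before the annotated start come from RefSeq, build GRCm38.p6, written 5′ to 3′ along the gene. Capitals mark every CCAAT or TTTGAA on either strand (ATTGG and TTCAAA on the other strand).
Mki67, chr7:135716380-135716579, minus strand: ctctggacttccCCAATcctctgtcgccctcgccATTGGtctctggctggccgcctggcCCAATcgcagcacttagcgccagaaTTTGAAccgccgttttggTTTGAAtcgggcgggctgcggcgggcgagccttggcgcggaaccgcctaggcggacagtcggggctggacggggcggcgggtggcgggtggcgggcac
Cdc20, chr4:118437344-118437543, minus strand: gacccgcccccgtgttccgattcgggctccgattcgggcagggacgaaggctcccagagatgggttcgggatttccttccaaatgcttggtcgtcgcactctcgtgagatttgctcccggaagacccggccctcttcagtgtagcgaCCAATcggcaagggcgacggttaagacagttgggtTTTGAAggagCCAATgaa
Hmgb2, chr8:57511643-57511842, plus strand: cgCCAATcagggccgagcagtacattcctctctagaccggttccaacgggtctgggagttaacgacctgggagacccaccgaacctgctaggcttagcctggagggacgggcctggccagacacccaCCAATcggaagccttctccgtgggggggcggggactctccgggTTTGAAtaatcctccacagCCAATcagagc

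Mki67 has 3 CCAAT and 2 TTTGAA matches in this stretch, Cdc20 has 2 and 1, and Hmgb2, a chromatin protein gene that stood at 83.4% at E18 and 100% at P7, has 3 and 1. At least 1 window of 300 bases, from 250 before a start to 50 after it, was found for 34 of the 43 genes by symbol. Some genes have several starts, with 32851 windows in all, and a gene was counted if any of its windows held the motif. CCAAT was in 26 of the 34 (76.5%), beside 41.1% of 27025 genes with a window. TTTGAA was in 17 of the 34, beside 20.2%. Both, in the same window or in different windows of a gene, were in 16 (47.1%), beside 9.0%. Over the 605 measured genes with a window the shares were 46.9%, 17.9% and 9.8%. The motifs do not overlap in letters, and both strands were searched. Among the genes that rose by 2-fold or more, 3 of 35 with a window (8.6%) held both motifs. Of those that fell, 2 of 13 (15.4%) did, and of the meningeal genes 0 of 13. These motifs were chosen for being textbook elements of cell cycle promoters, and a match is a description of letters.

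**Figure D4:**
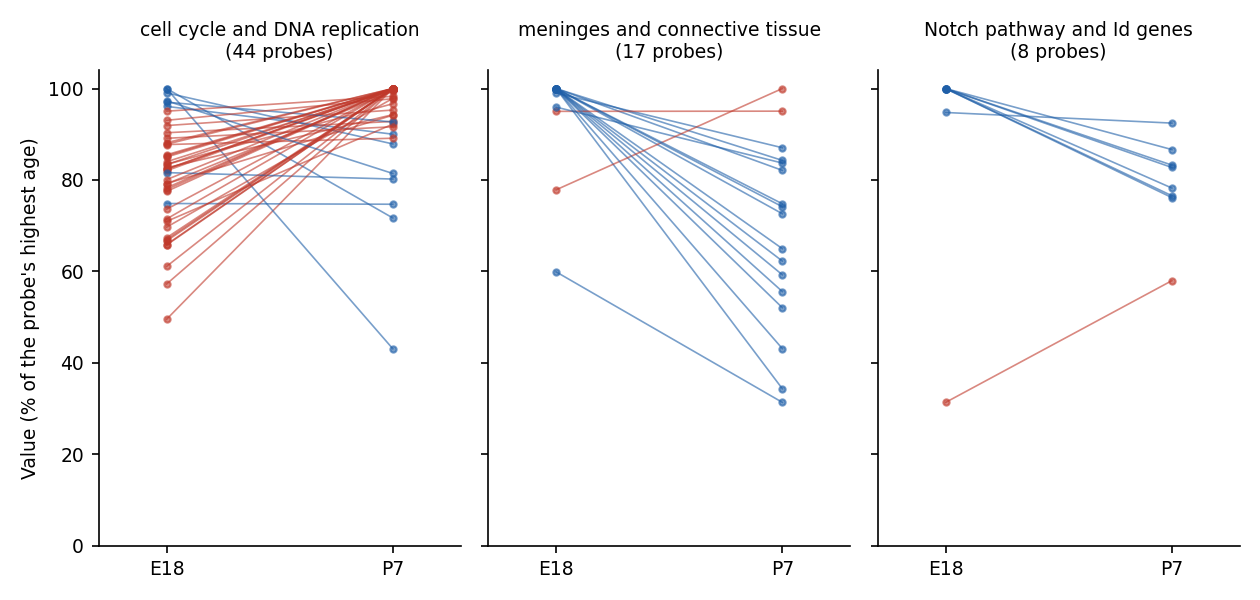
Each line joins the value of 1 probe at E18 with its value at P7, in percent of the probe's highest age, red if higher at P7 and blue if not. Cell cycle probes run up to 100% at P7 in 23 of 44 cases, while 12 of 17 meningeal probes and 6 of 8 probes of the Notch and Id list start from 100% at E18. Over all probes, 11.7% stood at exactly 100% at P7 and 19.7% at E18.

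The list for progenitors of granule cells and for Hedgehog signalling had 2 of 9 risen, Sfrp1 and Ccnd2, beside 5.82% of all named genes. None fell, and the median was 0.38. Neurod1, a transcription factor gene of differentiating granule cells, stood at 56.7% and 94.2%, and Pax6, another, at 74.8% and 100%. Mycn, a target of Sonic hedgehog, stood at 93.2% and 89.5%, and Meis1, a homeobox gene, at 100% and 90.6%. The Notch pathway and Id genes had no rise and no fall among 7, beside 8.54% of all named genes past 2-fold. Notch1 and Notch3, receptor genes, stood at 100% at E18 and at 78.2% and 76.6% at P7. Hes6 stood at 100% on both probes and then at 76.1% and 82.7%, Id1 at 100% and 86.7%, and Mfng at 100% and 83.3%. The exception was Numb, the gene of a protein that restrains Notch, which went from 31.3% to 58.0%. In this list 6 of 8 probes stood at exactly 100% at E18, beside 19.7% of all probes.

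Secreted Wnt antagonists went in opposite directions. Sfrp2 stood at 100% at E18 and 33.7% at P7, a 2.96-fold fall, and then at 13.2%, 9.31% and 8.30%. Its relative Sfrp1 rose 2.89-fold in the same step, as given above. Both experiments must have moved alike for each of them, and the opposite signs held under each alternative scaling and limit that was tried.

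In 17 of the 25 falls the value was lower again at P14, a share close to the 69.6% of all probes that were lower at P14 than at P7. Of these, 2 have no gene symbol and 1 has several. Nefm, the gene of the medium neurofilament protein, fell from 100% to 30.8% (3.24-fold) and stood at 19.2%, 27.1% and 32.7% later. Nefh, the heavy neurofilament gene, stood at 16.1% and 28.0% and had its highest value at P56. Dpysl3, a collapsin response mediator gene of growing axons, fell from 100% to 36.7% (2.73-fold) and on to 3.50% at P56. Sox4, a transcription factor gene of immature neurons, fell from 100% to 39.9% (2.51-fold), whereas Sox11, its relative, stood at 90.8% and 93.8%. Runx1t1, a corepressor gene, fell 2.69-fold to 37.2% and was at 37.1% at P14. Dab1, the adaptor gene of Reelin signalling that positions migrating neurons, fell from 100% to 44.1% (2.27-fold) and was at 53.5% at P56. In the list for young neurons, their migration and their axons, 4 of 17 fell, beside 2.72% of all named genes, and 1, Nfix, rose. The list's median was -0.08. The others include Cxcr4, a chemokine receptor gene of migrating progenitors, at 85.0% and 79.1%, and Rnd2, a small GTPase gene, at 56.1% and 100%.

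The Ebf genes, which encode early B-cell factor transcription factors found in early Purkinje cells, were all at 100% at E18. Ebf2 fell to 38.5% (2.60-fold), and Ebf3 fell on both probes, to 48.3% and 48.8% (2.07-fold and 2.05-fold). Ebf1 stood at 63.5% at P7, within 2-fold, and En1, a homeobox gene of the cerebellar field, at 83.1%. By P14 the probes of Ebf3 were at 10.8% and 12.6%, Ebf2 was at 21.6% and Ebf1 at 45.5%. Sst, the somatostatin gene, fell from 100% to 48.0% (2.09-fold) and to 10.2% at P14.

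A further 8 falls had their lowest value at P7 and were higher again at P14. Nr4a1, an immediate early gene for a nuclear receptor, stood at 17.8%, 7.59%, 71.1%, 100% and 90.5% at the 5 ages, a 2.34-fold fall. Slc2a1, the glucose transporter gene of brain endothelium and glia, stood at 63.5%, 28.1% and 64.0% at E18, P7 and P14 (2.26-fold). Gadd45b, a stress response gene, stood at 32.7%, 16.03% and 89.6% (2.04-fold), and Jup, the plakoglobin gene, at 26.3%, 12.8% and 40.5% (2.05-fold). Vamp2, Rab3a and Apod, given above, also stood lowest at P7. Myt1l, a zinc finger transcription factor gene of neurons, is the one of the 8 that started from 100%, and stood at 45.1% at P7 and 69.4% at P14 (2.22-fold). Over all probes, 65 had their lowest value at P7. Falls were chosen for being lower at P7 than at E18, so that count is no like comparison for the 8. For 7 of these 8, all but Myt1l, the columns lie under 50 points apart, so agreement of both experiments is not fixed by the means. With low values raised to the 10th percentile, Vamp2, Gadd45b, Jup and Nr4a1 no longer passed 2-fold. Their differences there were -0.89, -0.68, -0.37 and 0 (log2), while Rab3a, Slc2a1, Apod and Myt1l stayed past 2-fold. Of the other measured immediate early genes, Egr1 stood at 24.8% and 25.04% and Dusp1 at 35.9% and 33.9%.

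**Figure D5:**
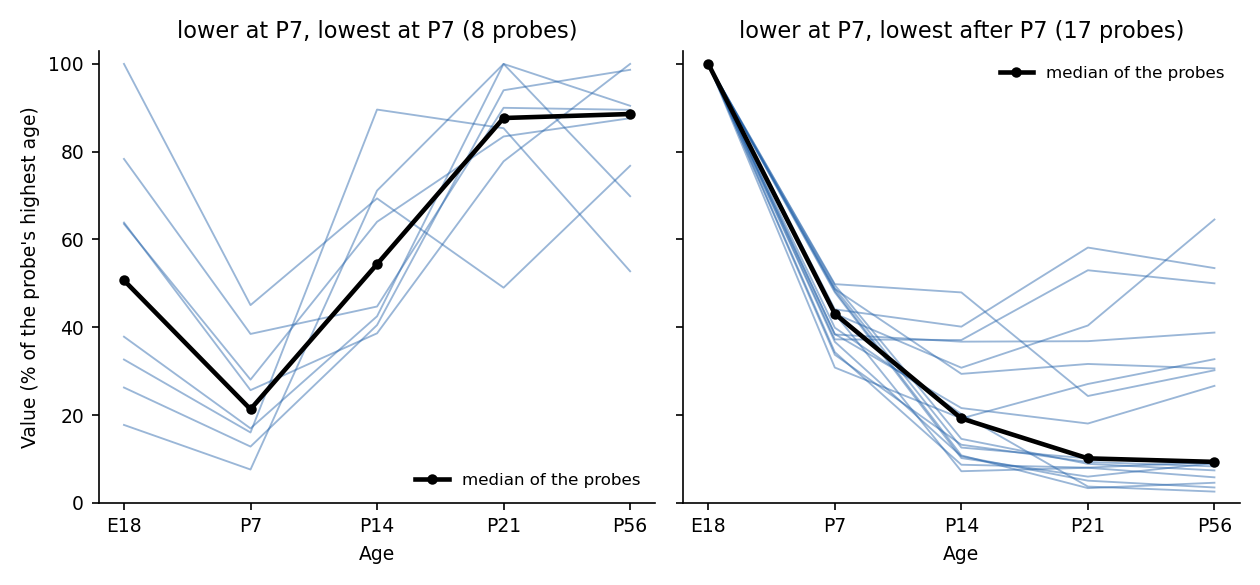
Lines are the values of single probes that fell from E18 to P7, in percent of the probe's highest age, at the 5 ages, and the black line is their median. On the left, the 8 probes lowest at P7 went from a median of 50.7% to 21.3% and back to 54.4% at P14; on the right, the other 17 went from 100% to 43.1% and on to 19.2%.

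Genes of meninges and connective tissue were mostly lower at P7. Mfap2, a gene of extracellular microfibrils, fell from 100% to 34.3% (2.91-fold) and to 8.68% at P14, and S100a10, a partner gene of annexin A2, fell from 100% to 43.1% (2.32-fold). The other 15 of 17 stayed within 2-fold, beside 707 of all 773 named genes. A difference below 0 was seen in 15 of the 17, beside 336 of the 773. The values of the list lay between 59.9% and 100% at E18 and between 31.4% and 100% at P7, and none was near 0. Anxa2 stood at 100% and 52.1%, Fbln2, a fibulin gene, at 100% and 59.3%, Col1a2 at 100% and 62.3%, Col3a1 at 100% and 72.6%, and Dcn, the decorin gene, at 99.0% and 87.1%. The exceptions were P4hb, at 77.8% and 100%, and Lgals1, at 95.0% and 95.1%. The median was -0.46, and 12 of the 17 probes stood at exactly 100% at E18, beside 19.7% of all probes. With quantile normalization 6 of the 17 fell, beside 51 of the 773 named genes.

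Markers of other cells moved as follows, and their part in the results was not tested. Choroid plexus genes Ttr, at 100% and 56.7%, and Igfbp2, at 100% and 70.8%, stayed within 2-fold. Of 5 endothelial and pericyte genes 1 fell, Slc2a1, beside 2.72% of all named genes. Kdr stood at 100% and 92.3% and Col4a1 at 86.0% and 86.5%. Ank1, the single gene measured in the erythroid list, stood at 15.95% and 14.4% and was highest at P56, at 100%. Npy stood at 47.1% and 36.1% and Penk at 29.1% and 32.5%. With Sst, they were listed as genes of neurons outside the cerebellum, but whether they are confined to such neurons was not tested. In these cerebellum columns Npy came to 100% at P21 and Penk to 100% at P56, whereas Sst was highest at E18.

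Imprinted genes had 1 fall among 5, Cdkn1c, beside 2.72% of all named genes, and a median of -0.43. Mest stood at 100% and 51.6%, Ndn at 100% and 74.2%, Nnat at 96.8% and 91.6%, and Peg3 at 29.1% and 35.9%. In the insulin-like growth factor list none of 4 passed 2-fold, beside 8.54% of all named genes. Igfbp5 stood at 100% and 73.2% and Igfbpl1 at 61.0% and 100%. With quantile normalization 1 of the 4 rose, beside 36 of the 773 named genes. Of 3 genes of glycolysis 1 fell, Slc2a1, beside 2.72% of all named genes. The phosphofructokinase genes Pfkl and Pfkm stood at 100% and 58.9% and at 26.4% and 39.7%.

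None of 40 genes of translation, splicing and chromatin and none of 5 ribosomal protein genes passed 2-fold, beside 8.54% of all named genes, with medians of 0.06 and -0.03. The ribosomal genes differed by -0.16 to -0.01 (log2), from Rps27l at 100% and 89.7% to Rpl36 at 99.7% and 99.0%. The extremes of the larger list were Smarce1, a chromatin remodelling gene, at 100% and 61.8%, and Hdac5, a histone deacetylase gene, at 33.1% and 52.7%. None of 4 cholesterol synthesis genes passed 2-fold (median -0.22). Of 6 genes of steroid and thyroid hormone response 1 rose, Hsd11b1, beside 5.82% of all named genes. The list's median was 0.02, and -0.06 with quantile normalization. Ptgds, the prostaglandin D synthase gene, stood at 59.9% and 31.4%.

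The balance of rises and falls depends on the scale. With columns divided by their medians 54 probes rose and 21 fell, with quantile normalization 44 and 59, and with low values raised to the 10th percentile 24 and 21, in place of 52 and 25. Of the 45 genes that rose, 16 stayed past 2-fold with quantile normalization and 4 changed sign. Of the 21 that fell, 20 stayed past 2-fold.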

How the data were processed

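Arrays measured total RNA of the mouse cerebellum at 5 ages, with 1 column each. The deposited values were read as percent of each probe's highest age: of 4485 values all lie between 0.01 and 100, 420 probes stand at exactly 100 at 1 age and 0 at 2. Per the labels, the authors gave the mean of 2 array experiments. The scaling is read from the values; scanner, background correction, normalization and the choice of probes are not stated in any label used here, so the counts hold for the deposited probes alone.

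Symbols were taken from the array platform's own annotation, which is old: 787 probes have 1 symbol, 16 several and 94 none, and 784 were found by gene identifier in RefSeq (GRCm38.p6, names and promoters). Differences are log2 of the P7 percent minus log2 of the E18 percent, with the 20 values under 1% set to 1%, so that a fold against such a value is a bound. Probes of a gene were averaged on the log2 scale for the 30 lists. These lists overlap, with 28 genes in more than 1 list, and the respiratory chain list had no measured gene. Named, among probes with 1 symbol, are the largest rises and falls, all bounds, and for each list the genes past 2-fold or its 2 most changed, with further list members added after their values were seen. The members and lists were chosen with earlier results of these data known. The calculation was tested on simulated data. Python 3.11.15, pandas 2.3.3 and numpy 2.4.6 were used.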

Additional observations from a re-analysis of the deposited data

How the results depend on the processing

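The number of rises, 52, was 24 when values below the 10th percentile were raised to it, 13 with the 25th percentile, 20 at 3-fold and 129 at 1.5-fold. The number of falls, 25, was 59 with quantile normalization, 1 at 3-fold and 81 at 1.5-fold. Dividing columns by their medians, adding 1 to each value, flooring at the smallest value, dropping probes under 1% at any age, and keeping 1 probe per gene each left both counts within 1.5 times. Quantile normalization turned the difference to the other sign for Gabra6 (-0.53), Hsd11b1 (-0.14), Mobp (-0.77) and Mog (-0.25); the cause was not tested. It was also the setting that changed the sign of the list medians for receptors (0.49 to -0.16), the cytoskeleton (0.15 to -0.03) and ribosomal proteins (-0.03 to 0.06). With the 10th percentile as the lowest value, 23 of the 45 risen genes and 17 of the 21 fallen ones stayed past 2-fold, and 0 changed sign. No paired analysis was possible because each age has 1 column.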
